A study of Mus musculus with 5 samples.

Results

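The known antisense lncRNA loci of the mouse testis are described here in mice given oral triptolide or saline. A lncRNA is a long RNA with no annotated protein, and an antisense lncRNA is read from the strand opposite to another gene. A locus was taken as a member when the authors classed every transcript assembled there as antisense and listed at least 1 of them as known. By that rule, which uses no expression value, 1241 of the 16356 lncRNA loci in the deposited table are members, and they hold 2461 of its 33057 transcripts. Of those transcripts, 2429 were listed as known and 32 were not, the latter at 18 loci. A single transcript was assembled at 764 members, and the largest number at any member was 19.

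Male C57/BL6J mice of 10 weeks received triptolide, a diterpenoid of the vine Tripterygium wilfordii, through a stomach tube at a daily 50 µg per kg. The control mice received saline, and the testes of both groups were collected at 35 days. The labels give 6 mice for each group, and the tables hold 2 control and 3 triptolide libraries of whole testis RNA depleted of ribosomal RNA and made with a directional kit. Whether a library is 1 mouse or a pool is not said, so the p-values below measure only the spread between these libraries, which may be technical. The comparison asks which loci differ in level between the treated and the saline testes.

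Antisense transcripts are common in the testis, where meiotic and postmeiotic germ cells transcribe much of the genome. An antisense RNA can overlap the start, the end or the body of its partner gene, and some such RNAs act on that gene's transcription, splicing or translation while others have no known effect. Many symbols here carry the ending os, for opposite strand, and others are provisional names of the Gm or Rik type that say nothing of function. Triptolide is known to block transcription by binding a subunit of the general factor TFIIH, and male infertility is a known effect of the vine.

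The coordinates of the members were set against those of RefSeq genes. Of the members, 572 carried a single symbol found in the RefSeq gene table (GRCm38.p6), and 561 of them (98.1%) overlapped the RefSeq gene of that name. Where the RefSeq promoters give a strand, 441 of 441 of these members lay on the strand of the gene they are named for. These counts compare a member with its own annotation and not with an opposite gene. Members that carry several symbols were left out of them. Some of those lie opposite a gene whose symbol they carry, as given below. An opposite-strand RefSeq protein-coding gene, called the partner below, was overlapped by 896 members: 395 lay inside it, 247 covered its start, 204 covered its end and 50 spanned it whole. Of the other 345, 204 overlapped a protein-coding gene whose strand is not in the tables used here, and 12 overlapped an opposite-strand gene whose symbol the locus itself carries. Cmss1/Gm26800 is in both sets. For 130 members neither held, so no opposite-strand protein-coding gene was found for them. The span of a member ran from 331 to 332521 bases with a median of 8727. No source used here says how the counting treated strand, and without strand a member's reads and its partner's cannot be told apart at any locus below. By name, 855 members have a Gm symbol, 228 a Rik symbol and 102 an os symbol, and 17 have none.

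RefSeq promoters, 250 bases before to 50 after a gene's start, were at hand for 437 member symbols, and 6 of the members that changed began within 100 bases of such a start. The promoters of 4 of these are shown, 2 of loci that fell and 2 of loci that rose, because they show how different the sequences at the starts of the changed members are. Capitals mark 4 short motifs found on either strand: CCAAT, read as ATTGG on the other strand, then the TATA box letters TATAAA, the core of a cyclic AMP response element, TGACGT, and the letters GTTGCC known from binding sites of RFX factors. Gm14966 and 4930533B01Rik fell. 5430405H02Rik and Gm15462 rose.

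Gm14966 (chr19:6363661-6363960, - strand, GRCm38.p6): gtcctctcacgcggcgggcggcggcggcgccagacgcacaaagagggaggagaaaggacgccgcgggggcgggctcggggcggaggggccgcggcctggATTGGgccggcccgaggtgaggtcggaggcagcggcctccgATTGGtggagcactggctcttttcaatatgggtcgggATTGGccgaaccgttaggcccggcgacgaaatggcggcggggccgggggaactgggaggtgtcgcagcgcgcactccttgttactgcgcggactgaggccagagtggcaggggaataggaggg
4930533B01Rik (chr2:113708501-113708800, - strand, GRCm38.p6): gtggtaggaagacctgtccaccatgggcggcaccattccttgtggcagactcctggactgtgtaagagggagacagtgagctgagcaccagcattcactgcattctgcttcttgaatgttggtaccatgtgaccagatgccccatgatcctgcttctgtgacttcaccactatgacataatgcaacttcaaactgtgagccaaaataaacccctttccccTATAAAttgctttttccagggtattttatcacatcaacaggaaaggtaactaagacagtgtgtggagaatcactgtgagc
5430405H02Rik (chr2:156862896-156863195, - strand, GRCm38.p6): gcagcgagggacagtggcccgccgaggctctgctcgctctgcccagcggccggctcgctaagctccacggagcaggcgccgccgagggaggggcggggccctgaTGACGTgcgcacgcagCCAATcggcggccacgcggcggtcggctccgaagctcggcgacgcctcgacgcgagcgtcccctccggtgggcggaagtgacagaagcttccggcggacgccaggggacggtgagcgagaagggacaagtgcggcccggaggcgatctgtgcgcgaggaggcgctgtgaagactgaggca
Gm15462 (chr3:30685835-30686134, + strand, GRCm38.p6): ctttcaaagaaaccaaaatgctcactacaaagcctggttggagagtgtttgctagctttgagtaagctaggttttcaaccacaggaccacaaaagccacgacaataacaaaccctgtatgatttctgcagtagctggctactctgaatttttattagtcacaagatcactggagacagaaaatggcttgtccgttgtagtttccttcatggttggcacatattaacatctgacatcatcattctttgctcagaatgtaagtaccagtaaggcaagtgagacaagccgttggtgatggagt

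The promoter of Gm14966 held 35 CpG pairs and 3 matches to CCAAT, all read as ATTGG, and that of 5430405H02Rik held 42 CpG pairs with 1 CCAAT and 1 TGACGT. By contrast 4930533B01Rik had 1 CpG and a TATAAA, and Gm15462 had 3 CpG and none of the 4 motifs. CpG-rich and CpG-poor starts were thus both present among the members that fell and among those that rose. The other 2 promoters, of 5033417F24Rik and Pla2g10os, held 49 and 3 CpG pairs, and both loci rose. Over all 32851 RefSeq promoters of the same length, 37.4% held CCAAT, 13.6% TATAAA, 7.51% TGACGT and 12.5% GTTGCC. A match of letters is a description of the window and shows no bound factor. The promoters of tested members had a median of 10 CpG pairs against 7 for all promoters, and a median GC content of 56.3% against 52.7%.

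The libraries were of like depth, with 947298 to 1071012 expected counts in the lncRNA table. The members took 9.46 and 9.39% of that count in the controls and 8.84, 9.35 and 8.80% under triptolide, and 629 to 666 members had any count in a library. Levels are given below as counts scaled to a total of 1000000 in the lncRNA table (CPM), so they are shares of lncRNA counts and not of all RNA. In every such series the controls stand first, in the order 1 and 2, and then triptolide A, B and 3. The letters A and B stand for 2 columns of counts that share a header in the table. The average fragment length implied by the deposited mRNA table was shorter under triptolide, 260 ± 3.7 against 283 ± 8.1 bases (SD, n = 3 and 2), with no overlap between the groups, and its part in the results was not tested. The tissue label could be checked only through the host genes of circRNAs: 23 of 35 germ cell marker genes gave 194 circRNAs, with 9000 to 10156 summed SRPBM (back-splice reads scaled to the library) in the controls and 7680 to 10163 under triptolide. Of 10 leukocyte markers 2 gave circRNAs, with 16 to 17 summed SRPBM in the controls and 66 to 96 under triptolide; of 16 Sertoli and 10 Leydig cell markers 1 each did (0 to 32 and 0 to 33 in the controls, 0 to 38 and 0 to 57 under triptolide). The part of these cells in the results was not tested. The smallest value above 0 for any circRNA was 16 SRPBM, so the leukocyte sums of the controls lie at or next to that floor. In whole testis, fewer cells of a type and less RNA per cell cannot be told apart.

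Most members were scarce. No count was listed for 407 members in any library, and 425 (34.2%) had enough counts to be tested, while 816 did not. Among all lncRNA loci 42.1% could be tested, and among the 2806 antisense loci with no known transcript 53.9%. Among the 2499 known intergenic loci the share was 32.3%, so low levels are not particular to known antisense loci. No count in any library was listed for 883 of those intergenic loci, and for 23 of the antisense loci with no known transcript. None of the 27 members on the X chromosome and not the 1 on Y could be tested, against 96 of 360 lncRNA loci (26.7%) on X as a whole. The tested members had a median level of 59.2 CPM, 152 members averaged at least 100 CPM and 19 at least 1000 CPM. The 10 with the most counts held 28.9 to 30.3% of all member counts, depending on the library.

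Per length of transcript, the highest member was 4930403D09Rik, a locus of 1 transcript inside Dock2, the gene of a leukocyte guanine nucleotide exchange factor (chr11:34299707-34308113, + strand). Its deposited FPKM, fragments scaled to transcript length and library size, was 17138 and 10753 in controls 1 and 2 and 12273 in triptolide 3. FPKM could be tied to 3 libraries only, control 1, control 2 and triptolide 3, since the other triptolide columns cannot be matched to the counts. At this locus triptolide 3 lay between the controls. Next came 1700019G24Rik, opposite Dync1i1, a dynein intermediate chain gene, at 6055 and 4757 in controls 1 and 2 and 3162 in triptolide 3. By counts of all 5 libraries, its log2 fold change was -0.39 ± 0.18 (SE), with an edgeR adjusted p of 0.19. This locus was followed by 1700108N11Rik at the start of Ovol2, a zinc finger transcription factor gene, with a mean of 3919.9 FPKM over the 3 libraries, and by 1700030C12Rik at Ahsa2 with 3203 FPKM. The first locus was above every other member in all 3. The libraries of neighbouring loci in this order overlapped from the second rank on, as the plot of FPKM shows.

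**Figure D1:**
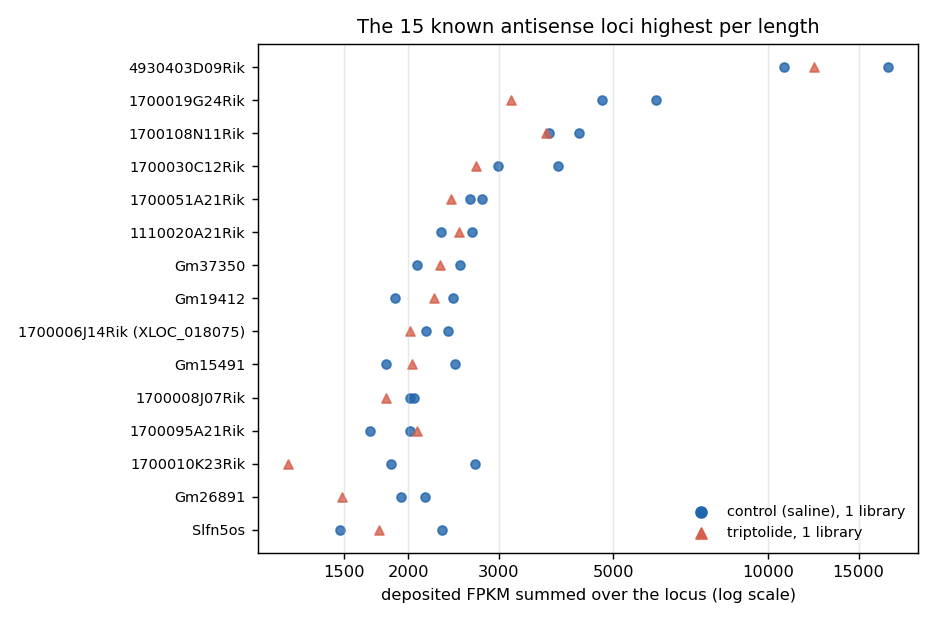
Deposited FPKM, summed over the transcripts of a locus, of the 15 known antisense loci with the highest mean, on a log axis. Each point is 1 library, with circles for the 2 controls and a triangle for triptolide 3; 4930403D09Rik stands apart at 10753 to 17138 FPKM.

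None of the 10 members with the highest CPM passed the test. At 4930403D09Rik the counts were 6049 and 3907 CPM in the controls and 4075, 5211 and 4675 CPM under triptolide (log2 fold change -0.09 ± 0.17, adjusted p = 0.81; ± gives the SE here and for every log2 fold change below). The second was 1700006J14Rik, inside Hmga2, the gene of a chromatin protein, with 4256 and 4175 CPM in the controls and 4144, 3999 and 3989 CPM under triptolide (log2 fold change -0.06 ± 0.16, adjusted p = 0.87). All 3 triptolide libraries lay just below both controls at that locus. The others were 1700051A21Rik at the start of the citrate transporter gene Slc13a5, Gm16835 at the start of Uggt2, Gm26763 across Zfp980, 1700008J07Rik at the end of Fbrs, 1700108N11Rik, 1110020A21Rik at the start of the phosphatase gene Ppm1b, 1700095A21Rik inside Zfp993, and Gm12841 across the proton pump gene Atp6v0b. Their log2 fold changes ran from -0.19 at 1700008J07Rik to 0.37 at 1700095A21Rik, and the smallest adjusted p was 0.21. The sign of such small values was not stable: 4930403D09Rik turned to 0.23 without control 1, and 4 others also changed sign when 1 library was left out.

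Among the 425 tested members, 22 rose and 9 fell under triptolide at an adjusted p under 0.05, by edgeR's quasi-likelihood test with Benjamini-Hochberg adjustment over all 6888 tested loci. That is 7.29% of the members, against 7.27% of all tested lncRNA loci. By direction, 5.18% of the members rose against a background of 5.01%, and 2.12% fell against 2.26%. These shares are near the background, so the counts of calls are no result about known antisense loci as a class. The median log2 fold change was -0.07 over the tested members and 0.00 over all tested loci, and 41.4% of the members against 50.1% of all loci lay above 0. Known intergenic loci had a median of -0.05, so this lean is not particular to the members. Without control 2 the median was 0.005 over the members and 0.034 over all loci. The controls and the triptolide libraries did not overlap at any of the 31, as at 499 of all 501 changed loci and at 38.0% of all tested loci, so their separation is no mark of known antisense loci. The median change was 1.05 on the log2 scale for the members that rose and -0.73 for those that fell. In each of the 5 fits that leave out 1 library, 7 of the 31 stayed past the threshold: Gm26702, Gm26880, Gm42875/Rimbp2, Gm16008, A730011C13Rik and Gm15462, which rose, and Trp53cor1, which fell. Of these 7, Trp53cor1 lost the call with DESeq2 (adjusted p = 0.055) and Gm26702 with limma voom (adjusted p = 0.059). DESeq2 called 11 of the 31. The count of rises dropped from 22 to 11 without control 1 or triptolide A and to 10 without triptolide 3, and the count of falls from 9 to 5 without control 1, to 6 without triptolide A and to 4 without triptolide 3. The calls over all tested loci dropped with them, from 501 to 269, 279 and 269 in these 3 fits.

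**Figure D2:**
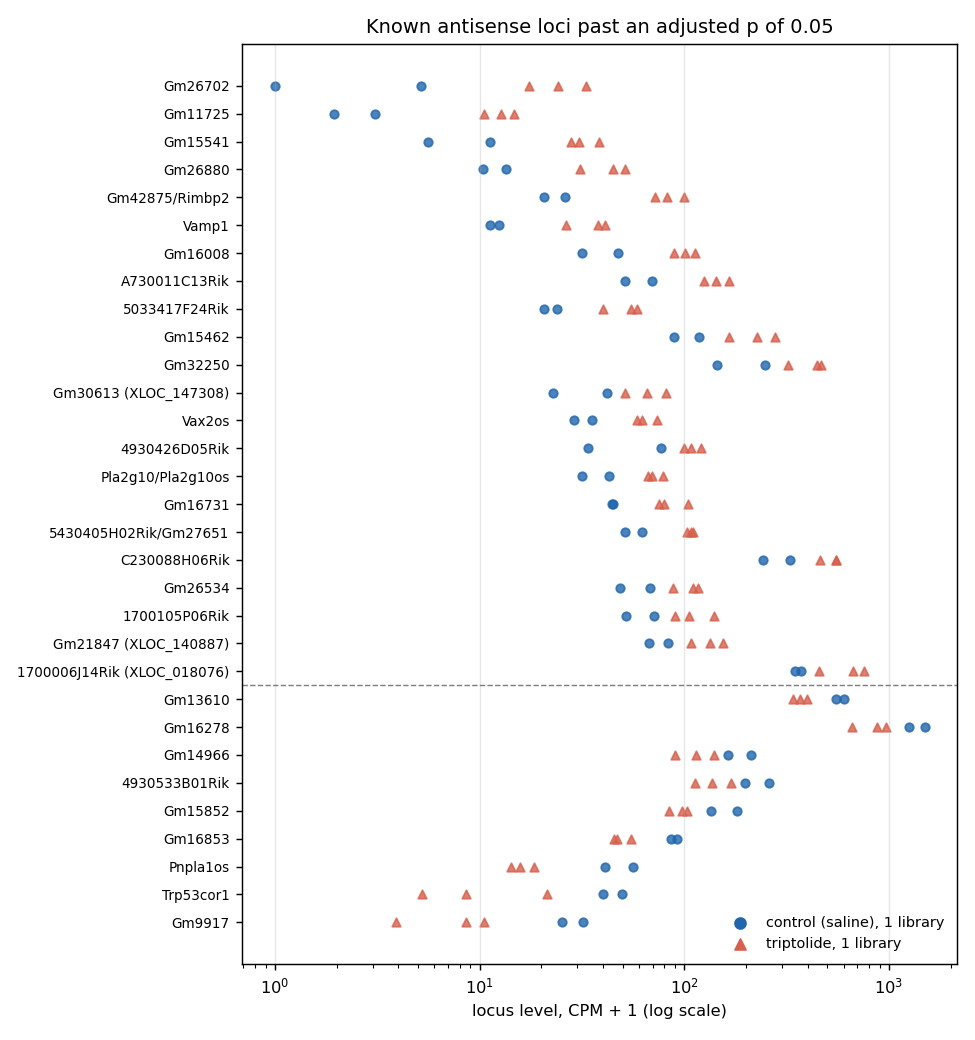
Level of each of the 31 known antisense loci past an adjusted p of 0.05, as CPM + 1 on a log axis, with 1 point per library (circles, 2 controls; triangles, 3 triptolide). The loci are ordered by log2 fold change; the 22 above the dashed line rose, the 9 below it fell, and circles and triangles are apart in every row.

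The strongest falls were at loci of low level. Gm9917 overlaps the end of Rassf1, a tumour suppressor gene (chr9:107558809-107568415, - strand), and was at 31.1 and 24.3 CPM in the controls and 9.50, 7.56 and 2.90 CPM under triptolide. It fell 4.16-fold (log2 fold change -2.04 ± 0.52, adjusted p = 0.013), with every triptolide library below both controls. The call was lost without control 1 (adjusted p = 0.14) and without triptolide 3 (adjusted p = 0.062).

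Trp53cor1 is the long noncoding RNA also called lincRNA-p21, a p53 target that lies upstream of the cell cycle inhibitor gene Cdkn1a on the other strand. As assembled here, it overlaps no RefSeq protein-coding gene. The locus (chr17:29057474-29078961, - strand) was at 48.7 and 39.2 CPM in the controls and 4.22, 7.56 and 20.4 CPM under triptolide, a mean of 44.0 ± 6.71 against 10.7 ± 8.54 CPM (SD, n = 2 and 3). All triptolide libraries were below the controls, but triptolide 3 was well above A and B. The fall was 4.10-fold (log2 fold change -2.004 ± 0.44, adjusted p = 0.0038), and 7.46-fold without triptolide 3 (log2 fold change -2.87, adjusted p = 0.0018).

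Pnpla1os covers the start of Pnpla1, a gene of skin barrier lipid synthesis, and lies 197970 bases from Trp53cor1 on the same chromosome and strand (chr17:28852170-28859503, - strand). It was at 54.9 and 40.1 CPM in the controls and 14.8, 13.2 and 17.5 CPM under triptolide. The triptolide values lay close together and below both controls, and the fall was 3.14-fold (log2 fold change -1.63 ± 0.35, adjusted p = 0.0035). The call was lost without control 1 (adjusted p = 0.062).

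Other lncRNA loci in that stretch of chromosome 17 did not pass the test. The table holds 7 lncRNA loci from Pnpla1os to the loci that overlap Cdkn1a, a stretch picked after its values were seen, and 5 of them were tested. Between the 2 that fell lies 1700030A11Rik, also a member, at 71.5, 129, 91.8, 97.3 and 77.7 CPM. Its log2 fold change was -0.18 ± 0.25 (SE), with an adjusted p of 0.74, and the groups overlapped. The nearer of 2 loci that carry the symbol Cdkn1a, antisense and not listed as known, starts 11634 bases past Trp53cor1 and was at 86.0, 71.9, 72.8, 119.99 and 64.1 CPM. Its log2 fold change was 0.12 ± 0.26 (SE), with an adjusted p of 0.84, and triptolide B alone was above the controls. The mRNA of Cdkn1a itself could not be matched in the deposited table and is not analysed here.

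The other 6 falls were smaller and at more abundant loci. Gm16853, at the start of Qtrt1, a gene of tRNA queuosine synthesis, was at 91.2 and 85.0 CPM in the controls and 44.4, 53.9 and 45.7 CPM under triptolide (log2 fold change -0.87 ± 0.26, adjusted p = 0.034). Gm15852, inside Ccdc190, was at 180.3 and 134 CPM in the controls and 83.4, 102 and 96.2 CPM under triptolide (log2 fold change -0.73 ± 0.22, adjusted p = 0.037). 4930533B01Rik, inside the formin gene Fmn1, was at 198 and 259.6 CPM in the controls and 135, 168 and 112 CPM under triptolide (log2 fold change -0.73 ± 0.21, adjusted p = 0.031). The means under triptolide were 1.84-, 1.67- and 1.65-fold lower, and no triptolide library reached a control.

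Gm14966, at the end of the kinase gene Map4k2, was at 210.4 and 163 CPM in the controls and 88.7, 138 and 113 CPM under triptolide (log2 fold change -0.72 ± 0.22, adjusted p = 0.04). Gm13610, at the end of Prrc2b, was at 601 and 553 CPM in the controls and 337, 368 and 395 CPM under triptolide (log2 fold change -0.65 ± 0.18, adjusted p = 0.021). Gm16278, at the end of Pigq, a gene of GPI anchor synthesis (chr17:25919089-25939819, + strand), was the most abundant member that changed. It was at 1253 and 1497 CPM in the controls and 876, 658 and 969 CPM under triptolide, a 1.65-fold fall (log2 fold change -0.72 ± 0.18, adjusted p = 0.014), in which triptolide B was the lowest library. It lost the call without control 2 (adjusted p = 0.12) and without triptolide B (adjusted p = 0.052).

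The other 5 also lost the call in fits with 1 library left out. Without control 1, Gm16853, Gm15852, Gm14966 and Gm13610 had adjusted p-values of 0.16, 0.39, 0.33 and 0.13. Without control 2, Gm16853, 4930533B01Rik and Gm13610 had 0.11, 0.34 and 0.060. Without triptolide A, all 5 were lost, with adjusted p-values of 0.15 for Gm16853, 0.18 for Gm15852, 0.11 for 4930533B01Rik, 0.25 for Gm14966 and 0.15 for Gm13610. Without triptolide 3, Gm16853, Gm15852, 4930533B01Rik and Gm14966 had 0.08, 0.069, 0.12 and 0.088.

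**Figure D3:**
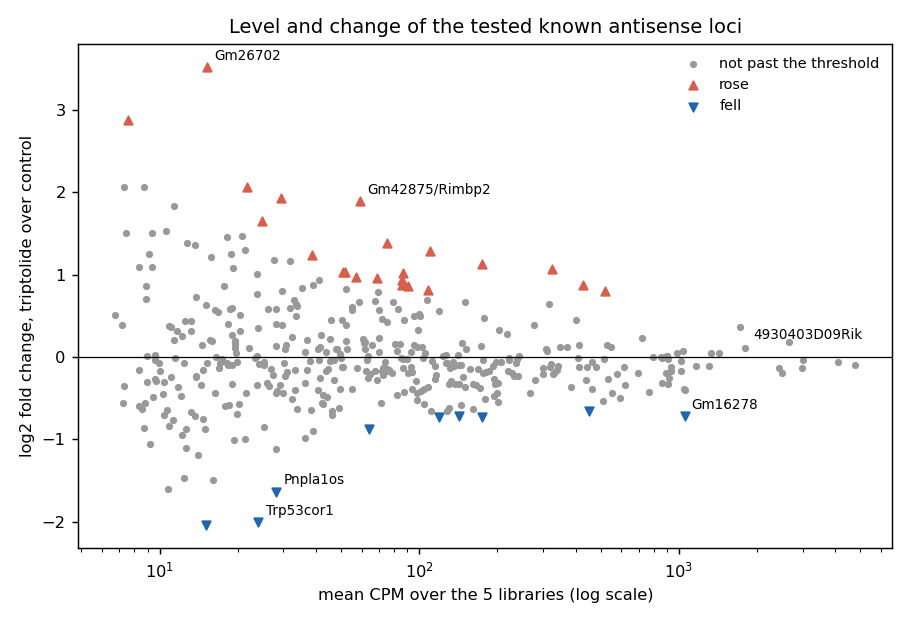
Log2 fold change, triptolide over control, against the mean CPM over the 5 libraries (log axis) for the 425 tested known antisense loci. Triangles mark the 22 loci that rose and the 9 that fell at an adjusted p under 0.05; the largest changes are at low levels, and 4930403D09Rik at the far right lies at -0.09.

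The rises also spanned a wide range of levels. Gm26702, at the start of Ajm1, an apical junction gene (chr2:25575431-25580099, + strand), was at 4.15 and 0 CPM in the controls and 23.2, 32.1 and 16.5 CPM under triptolide. It was nearly without counts in the controls, 4 in all and none in control 2, and had counts in each triptolide library (log2 fold change 3.52 ± 0.73, adjusted p = 0.0026). The pooled counts gave a 12.2-fold ratio, with an exact 95% interval of 4.58 to 46.1 that covers counting error only, and the fold was 5.78 without control 2 (adjusted p = 0.019). Without control 1, no control count remains.

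Gm11725, at the start of the threonine aldolase gene Tha1, was at 2.07 and 0.934 CPM in the controls and 13.7, 9.45 and 11.7 CPM under triptolide (log2 fold change 2.87 ± 0.90, adjusted p = 0.049). It had 3 control counts in all, a ratio of pooled counts of 7.83 with an exact 95% interval of 2.47 to 39.8. The call was lost without control 1, where the fold was 12.4 (adjusted p = 0.17), and without control 2 (adjusted p = 0.25), and the locus had too few counts to be tested without triptolide A or 3. Gm15541, inside Prx, which encodes periaxin of peripheral myelin, was at 4.59 and 10.3 CPM in the controls and 26.9, 29.4 and 37.3 CPM under triptolide. All triptolide libraries were above the controls, 4.20-fold in the mean (log2 fold change 2.06 ± 0.48, adjusted p = 0.0065), and 6.80-fold without control 2. Its call was lost without control 1 (adjusted p = 0.089) and without triptolide 3 (adjusted p = 0.054).

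The smallest adjusted p among the members belonged to Gm42875/Rimbp2, a locus of 3 transcripts, 2 of them known, that carries the symbol of the synaptic adaptor gene Rimbp2 beside its own (chr5:128756003-128778568, + strand). The locus overlaps Rimbp2 on the opposite strand. It was at 19.7 and 25.2 CPM in the controls and 81.3, 70.9 and 99.1 CPM under triptolide, a mean of 22.5 ± 3.90 against 83.7 ± 14.3 CPM (SD, n = 2 and 3). The lowest triptolide library was far above the higher control, and the rise was 3.73-fold (log2 fold change 1.89 ± 0.31, adjusted p = 2.3e-04). The largest adjusted p with 1 library left out was 0.0062.

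Gm16008 spans Tnfrsf18, the gene of GITR, a co-stimulatory receptor of T cells (chr4:156023727-156032344, - strand), and was at 46.6 and 30.6 CPM in the controls and 99.9, 88.3 and 111 CPM under triptolide (log2 fold change 1.38 ± 0.28, adjusted p = 0.0018). The locus that carries the symbol Vamp1, a vesicle SNARE gene, spans Cd27 (chr6:125231276-125239934, + strand), and was at 11.4 and 10.3 CPM in the controls and 25.3, 36.8 and 39.8 CPM under triptolide (log2 fold change 1.65 ± 0.41, adjusted p = 0.012). In both, the triptolide libraries were all above the controls, 2.58-fold and 3.14-fold in the mean; the second lost the call without triptolide 3 (adjusted p = 0.071). The loci were put side by side after their values were seen, and no group of genes is shown by them. The leukocyte marker circRNAs given above were 4 in number and near the floor in the controls, and their part in these rises was not tested.

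A730011C13Rik, inside the phosphatidylinositol 4-kinase gene Pi4kb (chr3:94994410-94997350, - strand), was at 68.4 and 50.4 CPM in the controls and 143, 124 and 165 CPM under triptolide (log2 fold change 1.28 ± 0.25, adjusted p = 0.0012). Gm15462, inside Lrrc31, whose CpG-poor promoter is shown above (chr3:30686085-30692366, + strand), was at 117 and 88.0 CPM in the controls and 225, 164 and 277 CPM under triptolide (log2 fold change 1.12 ± 0.24, adjusted p = 0.0029). They rose 2.42- and 2.166-fold in the mean with no overlap, and both kept the call whichever library was left out. 5033417F24Rik, at the start of the aminopeptidase-like gene Rnpepl1, was at 22.8 and 19.6 CPM in the controls and 53.8, 57.6 and 38.9 CPM under triptolide (log2 fold change 1.24 ± 0.34, adjusted p = 0.021), and Gm32250, which overlaps no partner, at 144 and 247 CPM in the controls and 446, 319 and 464 CPM under triptolide (log2 fold change 1.06 ± 0.23, adjusted p = 0.0034). The first lost the call without control 1 (adjusted p = 0.063), control 2 (0.094), triptolide A (0.089) or triptolide B (0.054). The second lost it without control 1 (adjusted p = 0.10).

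Of the 102 members with an os symbol, 47 were tested, and 2 rose and 1 fell (6.38%, against the 7.27% of all loci). Their median log2 fold change was 0.01. The one that fell is Pnpla1os, described above. Vax2os, named as the opposite strand of the eye development gene Vax2, which it overlaps, was at 28.0 and 34.5 CPM in the controls and 61.2, 57.6 and 72.8 CPM under triptolide (log2 fold change 1.03 ± 0.30, adjusted p = 0.033). Pla2g10os, opposite a secreted phospholipase gene and assembled in 1 locus with the symbol Pla2g10, was at 41.7 and 30.8 CPM in the controls and 65.5, 68.5 and 78.0 CPM under triptolide (log2 fold change 0.97 ± 0.29, adjusted p = 0.036). They were 2.04- and 1.95-fold higher in the mean, with the groups apart. Vax2os lost the call without control 1 (adjusted p = 0.23), triptolide A (0.10) or triptolide 3 (0.12), and Pla2g10os without control 1 (0.066), control 2 (0.22), triptolide A (0.098) or triptolide 3 (0.11). Of the 4 transcripts at Pla2g10os 3 are known, and with those alone its call was lost (adjusted p = 0.19).

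Of 60 widely studied lncRNAs on a list, 9 are members, 5 were tested, and Vax2os alone passed. Gm26953/Miat, which carries the symbol of the lncRNA Miat, was at 60.1 and 96.2 CPM in the controls and 128, 120.0 and 133 CPM under triptolide (log2 fold change 0.69 ± 0.24, adjusted p = 0.08), with every triptolide library above both controls. Hoxb5os had a log2 fold change of 0.43 ± 0.28 (adjusted p = 0.40) and Dlx6os1 of -0.01 ± 0.24 (adjusted p = 0.99). Snhg14, the antisense transcript of the imprinted Ube3a region, is the only member among 20 imprinted and X-inactivation lncRNAs and had too few counts to be tested.

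Dleu2, at the end of Trim13, is the host transcript of the miR-15a and miR-16-1 cluster. The locus was at 134 and 163 CPM in the controls and 134, 79.4 and 151 CPM under triptolide (log2 fold change -0.29 ± 0.24, adjusted p = 0.53), and the groups overlapped, with triptolide B alone below both controls. Both mature miRNAs of Mir16-1 in the RefSeq table lie inside it (chr14:61602839-61648822, - strand) and are shown with the seed, bases 2 to 8, in capitals, as the best known products of a member. These libraries do not measure mature miRNAs.

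mmu-miR-16-5p (chr14:61631936-61631957, - strand, GRCm38.p6): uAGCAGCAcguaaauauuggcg
mmu-miR-16-1-3p (chr14:61631894-61631915, - strand, GRCm38.p6): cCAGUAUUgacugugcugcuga

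Members opposite genes of germ cell stages, of the cilium and of other gene groups were also counted by lists. A member counted where it carried the symbol of a listed gene, with or without the ending os, or had that gene as a partner. Members that overlap a listed gene of no given strand, such as Gm14261 at Sall4, were left out. The counts of list members here and in the next paragraph are therefore minima. Any of the lists took in 82 members, of which 33 were tested, 1 rose (Vax2os) and 1 fell (Trp53cor1), 6.06% against the 7.27% of all loci. Opposite spermatogonial genes, Gm16277 at the end of Gfra1, the GDNF co-receptor gene, was at 298, 414, 316, 313 and 308 CPM (log2 fold change -0.19 ± 0.19, adjusted p = 0.62). Opposite the meiotic cyclin gene Ccna1, 4931419H13Rik was at 206, 195, 189, 193 and 175 CPM (-0.11 ± 0.20, adjusted p = 0.80). Germ cell stages in all had 6 tested members, with log2 fold changes from -0.39 to -0.03, and none passed.

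The cilium, axoneme and centrosome list had 15 members and 7 tested ones, with log2 fold changes from -0.44 to 1.25 and no call. Cep112os1, inside the centrosome gene Cep112, was at 627, 680, 472, 539 and 439 CPM, with all triptolide libraries below the controls (-0.44 ± 0.18, adjusted p = 0.14). The lists of p53, DNA repair and cell death (6 members, 4 tested), transcription and chromatin regulators (16 and 4), developmental transcription factors (19 and 6) and ubiquitin and proteasome (9 and 3) gave no call but Trp53cor1, and the 2 members at steroidogenesis genes had too few counts. In the chromatin and transcription list, Gm17249 at the start of the RNA polymerase III gene Polr3b was at 53.9, 28.9, 26.4, 13.2 and 17.5 CPM (-1.11 ± 0.38, adjusted p = 0.067).

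Calls came from every placement on the partner. Of members at the start of the partner 94 were tested, 5 rose and 2 fell; at the end 93, with 2 rises and 4 falls; inside 98, with 4 and 2; across the whole gene 35, with 3 and 0; and with no partner so defined 105, with 8 and 1. The shares called ran from 6.12 to 8.57%, around the 7.27% of all loci, and differences between these places were not tested. Known intergenic loci had 8.55% called and antisense loci with no known transcript 6.35%, also with no test of the difference.

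Loci in 2 arrays of near-identical genes lay on the higher side together. Both sets were picked after their values were seen, and reads of such copies can be split among them by the counting, so single loci there are uncertain. On chromosome 5, between positions 15462283 and 15715944, 14 members named Gm21847, Gm30613 or Speer4cos lie among genes of the Speer family, which encodes glutamate-rich proteins of spermatogenic cells. Of these 11 were tested, all 11 had log2 fold changes above 0 (0.10 to 1.46, median 0.83), the groups were apart at 9 (at 38.0% of all tested loci), and 2 passed the test (7.27% of all tested loci passed it). One of those, a Gm21847 locus (XLOC_140887), was at 66.3 and 82.2 CPM in the controls and 132, 107 and 153 CPM under triptolide (log2 fold change 0.81 ± 0.24, adjusted p = 0.036). The other, a Gm30613 locus across Speer4d (XLOC_147308), was at 21.8 and 41.1 CPM in the controls and 64.4, 50.1 and 80.6 CPM under triptolide (log2 fold change 1.04 ± 0.33, adjusted p = 0.049). Both calls were lost without control 1 (adjusted p = 0.29 and 0.42), triptolide A (0.12 and 0.12) or triptolide 3 (0.14 and 0.20). The Speer4cos locus with the most counts, XLOC_140901, was at 203, 268, 389, 291 and 424 CPM (0.64 ± 0.21, adjusted p = 0.056). Speer4cos loci overlap one another in position, so the 11 are not separate observations. Of all tested loci 50.1% lay above 0, and the median log2 fold change over all tested lncRNA loci of chromosome 5 was 0.11.

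On chromosome 4, 6 members lie among zinc finger genes between positions 145663935 and 147167060, and all 5 tested ones had log2 fold changes above 0 (median 0.52). Gm26880, at the start of Zfp981 (chr4:146501751-146512448, - strand), was at 12.4 and 9.34 CPM in the controls and 30.1, 44.0 and 50.5 CPM under triptolide, 3.81-fold higher in the mean (log2 fold change 1.93 ± 0.40, adjusted p = 0.0026). C230088H06Rik was at 329 and 242 CPM in the controls and 549, 461 and 549 CPM under triptolide (log2 fold change 0.87 ± 0.20, adjusted p = 0.0049), and lost the call without control 2 (adjusted p = 0.072). At Gm26880 the lowest triptolide library was well above the higher control, and the call held whichever library was left out. The other 3, Gm26763, 1700095A21Rik and 4933438K21Rik/Rex2, had log2 fold changes of 0.18, 0.37 and 0.52 and did not pass. Across the genome, 16 members overlap a partner of the Zfp type, known to lie on the opposite strand. Of these 7 were tested and Gm26880 alone rose, while 5.01% of all loci rose. C230088H06Rik overlaps Zfp978 and Zfp991, whose strand was not at hand, so it is not among the 16 although it rose. This set too was picked after its values were seen.

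**Figure D4:**
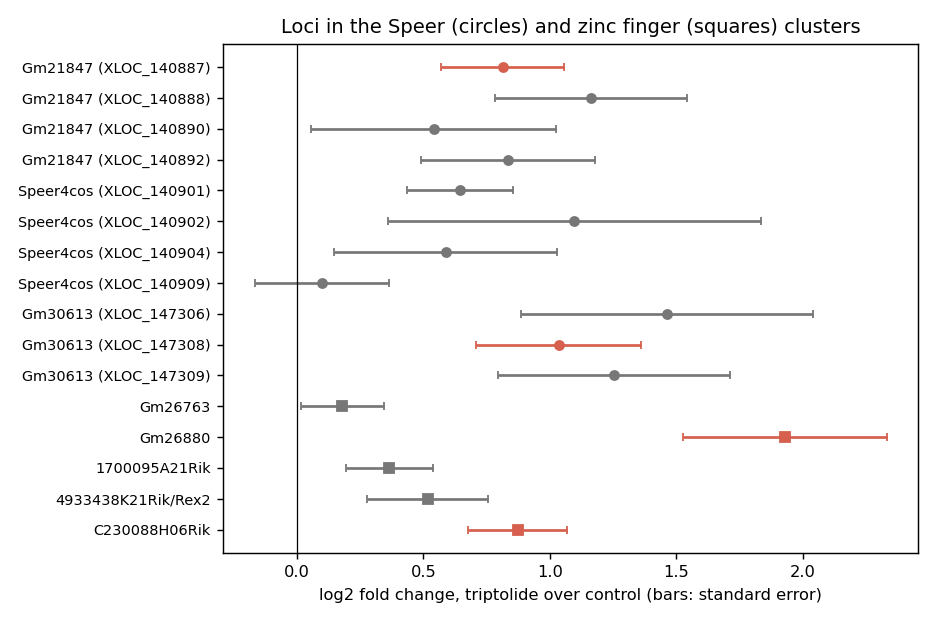
Log2 fold change, triptolide over control, with its standard error (bars), of the 16 tested known antisense loci in the Speer array of chromosome 5 (circles) and the zinc finger array of chromosome 4 (squares). The 4 loci past an adjusted p of 0.05 are in red; every point lies above 0.

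The 2 loci named 1700006J14Rik had unlike values, a difference that was not tested. They overlap on the same strand inside Hmga2, so their reads may be shared. The locus XLOC_018075, given above, was far more abundant and flat, with a log2 fold change of -0.06. The locus XLOC_018076 was at 348 and 370.2 CPM in the controls and 663, 453 and 755 CPM under triptolide (log2 fold change 0.80 ± 0.21, adjusted p = 0.014), and lost the call without control 1 (adjusted p = 0.066), triptolide A (0.071) or triptolide 3 (0.11). The other rises were 4930426D05Rik, Gm16731, 5430405H02Rik/Gm27651, Gm26534 and 1700105P06Rik, with log2 fold changes from 0.86 to 1.02; they fall outside the rule for named loci and complete the 22. 1700105P06Rik lost the call without control 1 or triptolide 3 (adjusted p = 0.33 and 0.18), and Gm26534 without control 2, triptolide A or triptolide B (0.25, 0.14 and 0.059). Gm16731 and 5430405H02Rik/Gm27651 lost it in every such fit but the one without triptolide B, with adjusted p-values of at most 0.14. At 4930426D05Rik the controls were far apart (75.7 and 32.7 CPM), and the rise was 3.32-fold without control 1 (adjusted p = 5.1e-04) and 1.43-fold without control 2 (adjusted p = 0.35). It also lost the call without triptolide A (0.055) or triptolide 3 (0.054).

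Single transcripts gave less. Of the members' transcripts 907 could be tested, and edgeR called 0 of them, as it called 0 of all 13534 transcripts tested. The smallest adjusted p was 0.20, and 87 (9.59%) had an unadjusted p under 0.05, against 9.89% of all transcripts tested. DESeq2 called 10 transcripts at 9 loci (6 higher, 4 lower), 1.06% of the 939 with an adjusted p, against 1.83% of all, and 4 of those loci were also called as loci. The counts of a transcript are shared out among overlapping isoforms by an estimate, so an isoform at 0 is only listed at 0.

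At 1700008J07Rik, at the end of Fbrs, the locus as a whole did not pass (log2 fold change -0.19), while its isoforms moved in both directions by DESeq2. Isoform TCONS_00296967 had no count in either control and 52.3, 28.6 and 62.2 expected counts under triptolide (DESeq2 adjusted p = 3.0e-04, edgeR adjusted p = 0.20). Its mean level under triptolide was 16.1-fold a chosen floor of 3 counts per control library, which is no lower bound on the fold. Isoform TCONS_00296964, which ends at the same base and starts close by, was at 496 and 448 counts in the controls and 218, 317 and 270 under triptolide (DESeq2 adjusted p = 0.026, edgeR adjusted p = 0.32). It made up 18.97 and 15.7% of the locus in the controls and 10.3, 12.4 and 10.9% under triptolide. The main isoform, TCONS_00296949, stayed at 2121 and 2377 against 1841, 2206 and 2152 counts.

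At A530020G20Rik, isoform TCONS_00201328 had no count in either control and 15.6, 24.4 and 32.3 counts under triptolide (DESeq2 adjusted p = 0.0071, edgeR adjusted p = 0.21). Its mean level under triptolide was 7.99-fold the same chosen floor. In triptolide 3, the library where it had the most counts, the isoform was 47.4% of the locus. At Cep112os1 the main isoform, TCONS_00060452, was at 576 and 696 counts in the controls and 376, 448 and 404 under triptolide (DESeq2 adjusted p = 0.030, edgeR adjusted p = 0.34). It was 95.2 and 95.6% of its locus in the controls and 84.2, 78.5 and 89.3% under triptolide.

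**Figure D5:**
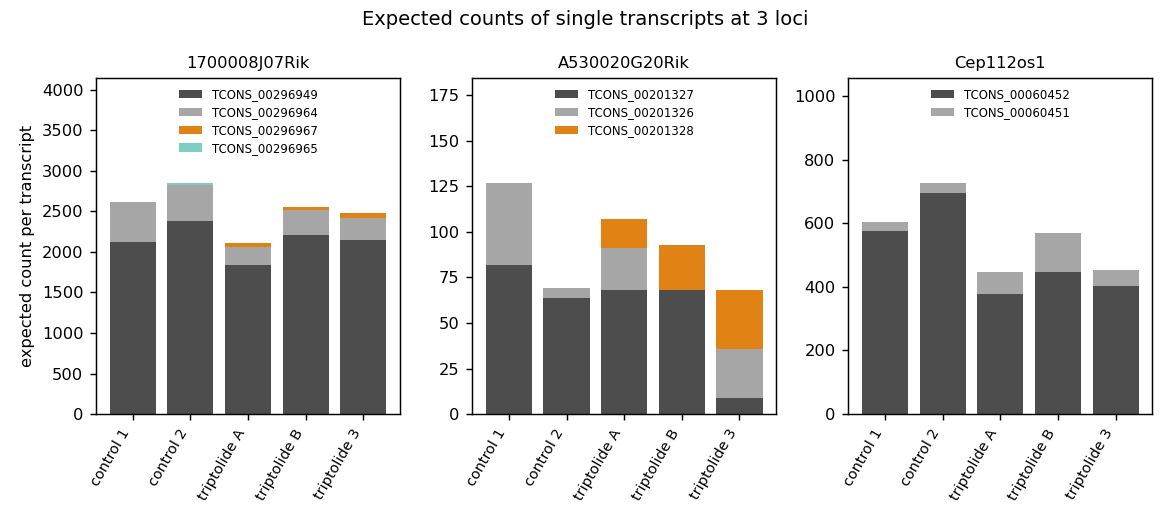
Expected counts of single transcripts in each of the 5 libraries at 1700008J07Rik, A530020G20Rik and Cep112os1, stacked per locus, not scaled for the libraries' near-equal totals. The orange isoforms of the first and second locus have no count in either control; at Cep112os1 the dark main isoform is lower in all 3 triptolide libraries.

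Partner genes could be followed only through their circRNAs, circles spliced from their exons. Of 1009 genes that members overlap or are named for, 237 gave 861 of the 11957 circRNAs in the table, and 395 were tested. With limma on log2(SRPBM + 16), 0 of these 395 and 0 of all 5457 circRNAs tested passed, and 28 of the 395 (7.09%) had an unadjusted p under 0.05, against 360 of all 5457 (6.60%). Their median log2 fold change was -0.03, and that of all tested circRNAs -0.06. Overlapped genes of no given strand, such as Spindoc at 1700105P06Rik, were left out of these counts. Of 24 genes so defined at the members that changed, Prrc2b, Map4k2 and Fmn1 gave 10 circRNAs, of which 3 were tested. The most abundant of these, from Fmn1, was at 87 and 82 SRPBM in the controls and at 57, 97 and 34 in the triptolide libraries, with a log2 fold change of -0.43 ± 0.51 (SE). The triptolide libraries fell on both sides of the controls there, while the antisense locus 4930533B01Rik was lower in all of them.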

How the data were processed

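Per the labels, RNA-seq libraries of 5 whole testis samples were made, 2 control and 3 triptolide. The authors deposited expected counts and FPKM for assembled lncRNA transcripts, expected counts and FPKM for mRNA transcripts, and a circRNA score that by its name is SRPBM, a scaled read number rounded to whole numbers. The submitters' processing notes name bedtools 2.17.0, DESeq, HTSeq 0.6.1 and HISAT2 2.0.1 without roles, and the human build hg19. The positions match mouse genes, so coordinates are printed as the files give them. RefSeq tables for GRCm38.p6 gave names, partners, promoters and miRNAs. The mRNA table pairs no transcript with a gene and served for fragment length only (fitted over lengths of 800 to 20000 bases and FPKM over 20). Columns were read by position where 2 lncRNA and 3 circRNA columns share a header, so triptolide letters do not carry over between tables. For that reason 2 sample columns, the lncRNA FPKM of the other triptolide libraries, were not used.

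Expected counts were summed per locus, rounded, filtered with filterByExpr, scaled by TMM and tested with edgeR 4.0.16 (R 4.3.3), with Benjamini-Hochberg adjustment over all loci. Alternatives were DESeq2 1.42.0, limma 3.58.1 (voom), other scalings and filters, known transcripts alone, and each library left out. For circRNAs limma was run on log2(SRPBM + 16), where at least 2 libraries were above 0. On simulated data over 6888 loci, 44 of 98 changes of 2-fold and 81 of 90 of 4-fold were recovered, with 4 of 6367 unchanged loci called. Each simulated locus had the spread typical of its level, with no spread of its own and no difference between libraries beyond depth. The shares may therefore be better than in the real data. Named loci were the 12 largest rises and falls past an adjusted p of 0.05 with groups apart and at least 5 CPM, the 10 highest in CPM, and list members. Members, lists and rules were chosen with earlier results of these data known.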

Additional observations from a re-analysis of the deposited data

How the results depend on the processing

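The number of known antisense loci that rose was 22 and became 9 with DESeq2. It was 19 to 24 with limma voom, DESeq2 size factors, library totals, other filters or known transcripts alone, and 10 to 24 with 1 library left out. The number that fell was 9 and became 3 with DESeq2. It was 9 or 10 under those other settings and 4 to 10 with 1 library left out. No transcript passed with edgeR, also with any library left out, and 10 passed with DESeq2. No circRNA passed, but 3 did when those above 0 in any library were tested, and with 1 library left out the number was 0 to 11, the latter without control 2. The cause was not tested for any of these. Each of the 23 named loci that changed kept its direction in all 272 alternatives that gave an adjusted p and lost the call in 63, of which 41 leave out a library and 13 are DESeq2. With 1 library left out, signs turned at 6 named loci, none of which passed: the log2 fold change ran from -0.34 to 0.23 at 4930403D09Rik, -0.10 to 0.053 at 1700051A21Rik, -0.25 to 0.0047 at Gm16835, -0.026 to 0.27 at 1110020A21Rik, -0.00016 to 0.11 at Gm12841 and -0.060 to 0.044 at Dlx6os1. Other scalings moved the median of all loci by less than 0.1 on the log2 scale. No paired analysis was possible because 2 triptolide columns share a header, so replicate numbers do not identify them. In the simulation over all 6888 tested loci, with the simple setting given above, 44 of 98 changes of 2-fold were recovered.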
